A study of Mus musculus with 6 samples.

Results

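Nuclear-encoded genes for the machinery of oxidative phosphorylation were followed in NMuMG cells depleted of Mnt during TGF-beta treatment. Members were the genes whose symbol begins with Nduf, Uqcr, Atp5 or Cox followed by a digit of a structural subunit (4, 5, 6, 7 or 8), together with Sdha, Sdhb, Sdhc, Sdhd and Cyc1, provided that their mean over the 6 libraries was at least 10 normalised read counts. The rule gave 89 genes of the 14526 in the table. Every gene that matched by symbol was above the minimum, so none was lost to it, and all 89 were among the 12568 genes tested. They comprised 36 subunits of complex I, 4 of complex II, 9 of complex III, 13 of complex IV and 17 of complex V, and 8 complex I assembly factors and 2 gene copies that share the Nduf prefix. The subunits that mitochondrial DNA encodes were not analysed here.

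NMuMG is a mouse mammary epithelial cell line that takes on mesenchymal traits under TGF-beta. The tested cells received small interfering RNA against Mnt (siMnt, n = 3 libraries), and the cells they were set against received a non-targeting siRNA (siNTC, n = 3). Both groups carried TGF-beta until day 4, with siRNA and TGF-beta first given 16 hours after plating and given again on day 2, so no value here describes cells without TGF-beta. A transient siRNA lowers a transcript without removing the gene: Mnt, the transcriptional repressor that pairs with Max, had 613, 557 and 749 normalised read counts in siMnt libraries, against 1316, 896 and 1596 in siNTC libraries. All siMnt libraries were lower, and the log2 fold change of -0.96 had an adjusted p of 0.0546 in limma and 0.00442 once replicate number was a block in the fit.

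In oxidative phosphorylation, complexes I and II pass electrons from NADH and succinate to ubiquinone, complex III passes them on to cytochrome c, and complex IV hands them to oxygen. Complexes I, III and IV pump protons across the inner mitochondrial membrane, and complex V, the ATP synthase, uses the gradient to make ATP. Complex II is also an enzyme of the citrate cycle, and all of its subunits come from nuclear genes, whereas the other complexes combine nuclear and mitochondrial gene products.

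Recovered read totals lay between 22323050 and 25666005 in siMnt libraries and between 24767602 and 42193291 in siNTC libraries. The siNTC libraries differed more among themselves than the siMnt libraries did. Across the 12568 tested genes, Pearson's r of log2 values was between 0.987 and 0.990 for pairs of siMnt libraries and between 0.963 and 0.981 for pairs of siNTC libraries, and siNTC replicate 3 correlated at 0.987 with siMnt replicate 3. Across all genes, 494 passed the test (limma, Benjamini-Hochberg adjusted p under 0.05), but 2012 passed without siNTC replicate 3 and 0 passed without siMnt replicate 1, siMnt replicate 2 or siNTC replicate 1, where 1816, 1920 and 2193 had an unadjusted p under 0.05. With edgeR on the recovered reads those 3 counts were 0 as well. Of 6 markers of luminal epithelium, 5 were measured, and their summed level was between 126456 and 137884 in siMnt libraries and between 114355 and 141608 in siNTC libraries. None of the 5 passed in limma, but with replicate number as a block 1 was called higher and 1 lower. That fit called 9.33% of all tested genes higher and 6.56% lower. Among the measured markers of other cell types (2 basal, 3 fibroblast, 2 macrophage and 2 muscle), Csf1r was called higher and Tnnt2 lower in siMnt cells by limma. The summed level of Csf1r and Cd68 was between 1968 and 2257 in siMnt libraries and between 950 and 1318 in siNTC libraries, and their part in the values below was not tested. The labels do not say that the replicates were separate cultures, so the p-values below measure only the spread between these libraries, which may be technical.

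The oxidative phosphorylation genes as a body showed little difference between siMnt and siNTC cells. The median log2 fold change of the 89 members (siMnt minus siNTC) was -0.02, beside -0.01 over all tested genes, and the middle 50% of members lay between -0.11 and 0.06, beside -0.22 and 0.24 for all tested genes. One gene, Sdha, passed the test as lower in siMnt cells, and 0 passed as higher (limma on log2(value + 1), Benjamini-Hochberg adjusted over all 12568 genes). Of all tested genes, 1.37% passed as lower and 2.56% as higher. A further 10 members had an unadjusted p under 0.05, which makes 11 of 89 or 12.4%, beside 23.4% of all tested genes. With edgeR on the recovered reads, 1 member was again called lower and 0 higher, where 1.25% and 2.29% of all genes were called.

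How small the differences were can be read from their intervals. For 70 of the 89 members (78.7%) the 95% interval of the fold change lay wholly within 1.5-fold in either direction, as it did for 42.0% of all tested genes. For 82 members it lay within 2-fold. A log2 fold change beyond 0.5 in either direction was found for 9 members (10.1%), against 20.7% of all tested genes. The groups did not overlap for 18 members (20.2%), beside 31.5% of all tested genes. All tested genes were not matched to the members in level, and the part of level in these shares was not tested. Values come from bulk RNA, in which fewer cells of a type and less RNA per cell cannot be told apart. Each library was scaled by a single factor, so a change in total RNA per cell would not be visible.

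**Figure D1:**
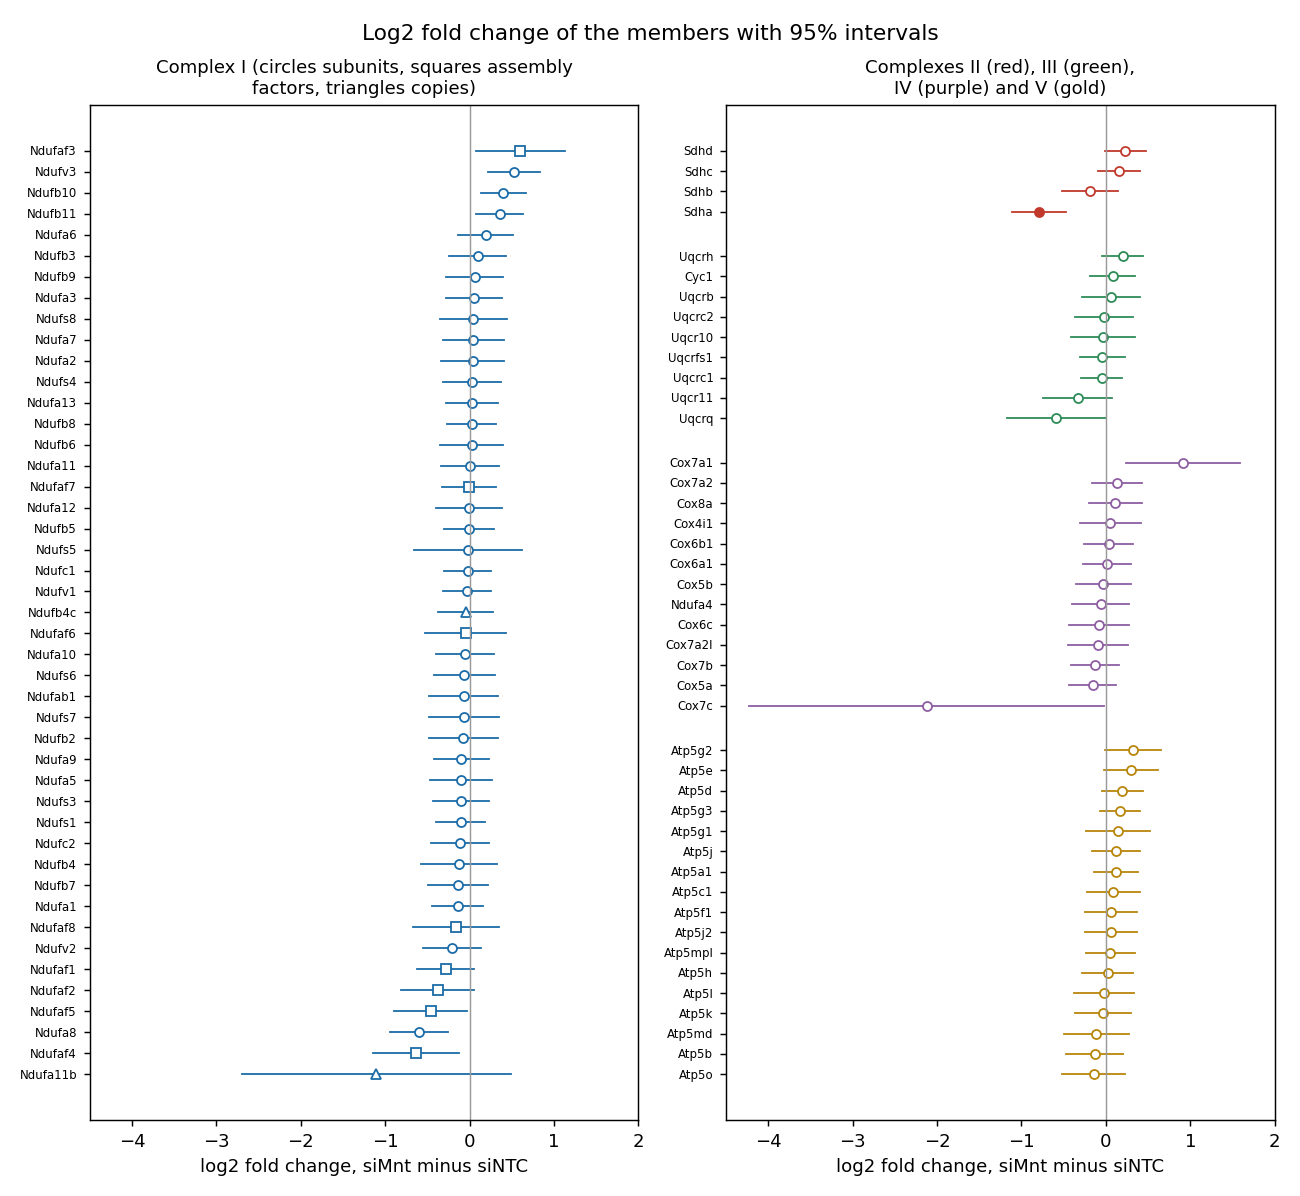
Log2 fold change of 88 of the 89 members (siMnt minus siNTC, x axis) with its 95% interval from limma, sorted by value within each complex. The filled point, Sdha at -0.79, is the member that passed at an adjusted p under 0.05, and the wide intervals belong to Cox7c and Ndufa11b, which had few reads.

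Other fits called a few more members, in both directions. With a block for replicate number, 2 members were called higher (Ndufv3 and Ndufb10) and 3 lower (Sdha, Ndufa8 and Uqcrq), where 9.33% and 6.56% of all tested genes were called. That block takes same-numbered libraries as pairs, a pairing that the members alone did not show (r of -0.20, -0.54 and -0.20). This limit holds for every p given with the block. After trends with GC content and transcript length were removed from each library, Ndufv3 was called higher and Sdha and Ndufa8 lower (4.8% and 2.96% of all genes). With that correction and the block together, 4 were called higher (Ndufv3, Ndufb10, Ndufb11 and Atp5e) and 2 lower (Sdha and Ndufa8), beside 10.9% and 7.9% of all genes. DESeq2 on the recovered reads called Ndufv3 and Ndufb10 higher and Sdha and Ndufa8 lower (6.71% and 4.89% of all genes). Without siNTC replicate 3, the fit called Ndufv3 and Cox7a1 higher and Sdha, Ndufa8, Uqcrq, Ndufaf4 and Ndufaf5 lower, where 9.51% and 6.5% of all genes were called. After the GC and length correction without siNTC replicate 3, a fit added after the data were seen, 7 members were called higher and 4 lower, beside 12.6% and 9.47% of all genes. At an adjusted p under 0.1 over all libraries, 2 were called higher and 2 lower, beside 6.46% and 4.17% of all genes, and at an adjusted p under 0.01 no gene of the table was called in either direction (0%). Without the trend in the variance model 0 members were called, beside 1.69% of all genes as higher and 0.748% as lower, and 9 had an unadjusted p under 0.05, as did 22.1% of all genes. In each of these fits, and in either direction, the share of members called was no higher than the share of all tested genes called.

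The start-site regions of the 4 members called in at least 3 of the first 5 of those fits are shown, so that the genes that were lower (Sdha and Ndufa8) can be set beside those that were higher (Ndufv3 and Ndufb10). Each runs from 250 bases before to 50 bases after the RefSeq start on mouse build GRCm38.p6, and capitals mark each match, on either strand, to the word made of GCGCA, any base and GCGC. That word is the core of the site bound by nuclear respiratory factor 1 (NRF1), a known activator of many respiratory genes, and it was added to the search after the expression values had been seen.
Sdha, chr13:74350191-74350490, minus strand: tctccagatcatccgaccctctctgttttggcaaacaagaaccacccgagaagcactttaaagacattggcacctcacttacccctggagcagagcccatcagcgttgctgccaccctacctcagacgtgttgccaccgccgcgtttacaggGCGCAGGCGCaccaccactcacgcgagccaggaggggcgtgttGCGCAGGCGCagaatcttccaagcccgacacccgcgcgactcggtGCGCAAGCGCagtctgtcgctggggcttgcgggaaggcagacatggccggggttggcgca
Ndufa8, chr2:36049289-36049588, minus strand: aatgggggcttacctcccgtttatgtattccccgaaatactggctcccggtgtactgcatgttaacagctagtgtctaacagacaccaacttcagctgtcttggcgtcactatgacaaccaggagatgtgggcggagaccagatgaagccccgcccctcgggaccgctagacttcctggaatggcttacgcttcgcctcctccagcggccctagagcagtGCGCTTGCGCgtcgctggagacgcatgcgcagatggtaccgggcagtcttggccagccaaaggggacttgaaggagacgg
Ndufv3, chr17:31519865-31520164, plus strand: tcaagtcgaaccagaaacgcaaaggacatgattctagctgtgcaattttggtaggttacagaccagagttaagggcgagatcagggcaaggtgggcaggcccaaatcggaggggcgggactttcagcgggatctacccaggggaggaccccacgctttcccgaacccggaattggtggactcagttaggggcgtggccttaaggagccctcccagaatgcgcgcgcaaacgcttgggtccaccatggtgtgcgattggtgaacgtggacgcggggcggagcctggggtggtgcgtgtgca
Ndufb10, chr17:24724374-24724673, minus strand: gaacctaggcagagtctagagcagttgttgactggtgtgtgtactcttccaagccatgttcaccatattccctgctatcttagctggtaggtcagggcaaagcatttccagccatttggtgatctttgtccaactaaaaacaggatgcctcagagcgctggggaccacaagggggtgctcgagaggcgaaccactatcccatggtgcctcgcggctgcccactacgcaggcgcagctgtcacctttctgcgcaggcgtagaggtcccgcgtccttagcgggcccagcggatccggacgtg
Sdha held 3 such words, beginning 98, 55 and 10 bases before the start, and Ndufa8 held 1, beginning 30 bases before it, while Ndufv3 and Ndufb10 held none. Members with the word had log2 fold changes of either sign, and its part in them was not tested. Ndufb4 held 3 at -0.12, and Uqcrc1 and Cox6a1 held 2 each at -0.05 and 0.01. A single word in a start region was also found for members with negative values: Ndufaf4 (-0.63), Ndufaf5 (-0.46), Atp5o (-0.15), Ndufa5 (-0.10), Ndufs6 (-0.06), Atp5k (-0.04) and Ndufs5 (-0.02). Those with positive values were Atp5g2 (0.32), Sdhd (0.23), Ndufa6 (0.19), Atp5g3 (0.16), Atp5c1 (0.09), Atp5h (0.02) and Ndufa11 (0.01). Start regions were found for 73 members, with 78 starts in all. The NRF1-type word was in 20 of those 78 (25.6%), in 9.82% of the start regions of the other tested genes and in 4.60% of the 32851 regions in the whole set. More than 1 such word occurred in 4 of the 78, or 5.13%, beside 1.54% of the other tested genes. The E-box CACGTG, the word known to be bound by Mnt with Max, was in 7 of the 78 (8.97%), in 9.78% of the other tested genes' regions and in 7.15% of all regions. Those 7 belonged to Atp5f1, Atp5g1, Atp5g3, Atp5l, Ndufv1 and Ndufa7, the last with 2 starts, and none of these genes passed the test. The wider word CANNTG, which contains CACGTG, was in 69.2% of members' regions, 63.9% of the other tested genes' and 72.3% of all. Median GC content was 58.8% in members' regions and 60.7% in the other tested genes' regions.

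Complex I, the NADH dehydrogenase, is built from core subunits that carry the flavin, the iron-sulfur clusters and the ubiquinone site, and from accessory subunits that frame them. None of its 36 subunits passed the test. Their median log2 fold change was -0.02, with 15 positive and 21 negative values between -0.60 and 0.52. The 7 nuclear-encoded core subunits had a median of -0.07, and the 29 accessory subunits had a median of -0.01. The core subunit Ndufs1, which carries iron-sulfur clusters, had 3439, 3416 and 3132 normalised read counts in siMnt libraries, against 3537, 4068 and 3185 in siNTC libraries, a log2 fold change of -0.11 (95% interval -0.39 to 0.18). The groups overlapped, and siNTC replicate 2 was the highest library.

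A few accessory subunits of complex I stood away from the rest, and they are named here after their values were seen. Ndufa8, a subunit on the intermembrane-space side of the membrane arm, had 983, 1147 and 1341 normalised read counts in siMnt libraries, against 1616, 1956 and 1671 in siNTC libraries. All 3 siMnt libraries were below all 3 siNTC libraries, and the mean in siMnt libraries was 66.2% of that in siNTC libraries. The log2 fold change of -0.60 (SE 0.15) had an adjusted p of 0.0652 in limma, and 0.0167 with the replicate block. Ndufv3, a small subunit of the NADH-oxidising module, had 3153, 3264 and 2711 in siMnt libraries, against 1844, 2332 and 2183 in siNTC libraries. All siMnt libraries were above all siNTC libraries. The log2 fold change was 0.52 (SE 0.13), with an adjusted p of 0.0689 in limma and 0.0230 with the block. Ndufb10, a membrane-arm subunit, had 1676, 1659 and 1484 in siMnt libraries, against 1125, 1274 and 1255 in siNTC libraries. Its groups did not overlap either, and its log2 fold change of 0.40 (SE 0.12) had an adjusted p of 0.0914 in limma and 0.0470 with the block. Ndufb11, an X-linked gene for another membrane-arm subunit, had 1382, 1495 and 1457 in siMnt libraries, against 1014, 1225 and 1152 in siNTC libraries. This gave a log2 fold change of 0.36 and an adjusted p of 0.128 in limma, again with no overlap. Apart from these 4, the log2 fold changes of the complex I subunits lay between -0.21 (Ndufv2) and 0.19 (Ndufa6).

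The 8 complex I assembly factors, which help build the complex and are not part of it, had a median log2 fold change of -0.22. Of the 8 values 7 were negative, beside 6464 of 12568 over all tested genes, and none passed. Between libraries of the same number their median log2 difference was -0.28, -0.39 and 0.00 for numbers 1, 2 and 3. For 6 of the 8, siNTC replicate 2 was the highest library. Ndufaf4 and Ndufaf3, which are known to act together in the assembly of the ubiquinone module, differed in sign. Ndufaf4 had 532, 482 and 527 normalised read counts in siMnt libraries, against 710, 1143 and 622 in siNTC libraries. Its siMnt libraries were all lower, and the siNTC libraries were spread widely, with replicate 2 the highest. The log2 fold change was -0.63 (SE 0.22), with an adjusted p of 0.140 in limma. Ndufaf3 had 235, 260 and 194 in siMnt libraries, against 113, 182 and 163 in siNTC libraries. All siMnt libraries were higher, and the log2 fold change was 0.60 (SE 0.23) with an adjusted p of 0.165 in limma. Without siNTC replicate 3, Ndufaf4 had an adjusted p of 0.0367 in limma (log2 fold change -0.81). That fit also called Ndufaf5, a methyltransferase fold protein that hydroxylates the core subunit Ndufs7 and was named here after its value was seen. It had 259.5, 273.3 and 294.1 in siMnt libraries, against 392.2, 461.9 and 300.4 in siNTC libraries, and its adjusted p over all 6 libraries was 0.192 in limma.

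Complex II held the one member that passed. Sdha, the flavoprotein subunit in which succinate is oxidised, had 2744, 2742 and 3641 normalised read counts in siMnt libraries, against 5089, 5444 and 5124 in siNTC libraries. All siMnt libraries were below all siNTC libraries, the highest siMnt library being replicate 3, and the siMnt mean was 58.3% of the siNTC mean. The log2 fold change was -0.79 (SE 0.14, 95% interval -1.11 to -0.47) with an adjusted p of 0.0302 in limma, 0.0332 in edgeR and 0.00708 in limma with the replicate block. The call depended on the libraries used: limma's adjusted p was 0.168 without siMnt replicate 1, 0.140 without siMnt replicate 2, 0.117 without siNTC replicate 1 and 0.0527 without siNTC replicate 2, while the log2 fold change stayed between -0.93 and -0.72 over all 6 omissions. Without the trend in the variance model the adjusted p in limma was 0.0514. The transcript used for Sdha shares no 50-base word with the transcripts of other genes.

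The other complex II subunits did not follow Sdha. Sdhb, the iron-sulfur subunit, had 1835, 2003 and 1896 normalised read counts in siMnt libraries, against 2010, 2654 and 1946 in siNTC libraries, with overlap and a log2 fold change of -0.19. Sdhc and Sdhd anchor the enzyme in the membrane and form its ubiquinone site. Sdhc had 2117, 2176 and 2258 in siMnt libraries, against 1901, 1883 and 2094 in siNTC libraries, and Sdhd had 3529, 3623 and 3454 in siMnt libraries, against 2855, 3241 and 2976 in siNTC libraries. For both anchors all siMnt libraries were higher, yet neither passed: the log2 fold changes were 0.16 and 0.23, with adjusted p of 0.411 and 0.243 in limma.

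Because Sdha and the anchors lay on opposite sides of 0, the ratio of Sdha to each partner was taken within every library, a description chosen after these values were seen. Sdha over Sdhd, both in normalised read counts, was 0.778, 0.757 and 1.05 in siMnt libraries, against 1.78, 1.68 and 1.72 in siNTC libraries. Sdha over Sdhc averaged 1.39 ± 0.19 in siMnt libraries and 2.67 ± 0.22 in siNTC libraries (SD, n = 3 each), and Sdha over Sdhb averaged 1.59 ± 0.29 in siMnt libraries and 2.41 ± 0.31 in siNTC libraries (SD, n = 3 each). The groups did not overlap in any of the 3 ratios, which for Sdhc and Sdhd follows from the values above. Per kilobase of transcript the mean level of Sdha was 1049 in siMnt libraries and 1800 in siNTC libraries, and that of Sdhd was 2872 in siMnt libraries and 2457 in siNTC libraries.

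**Figure D2:**
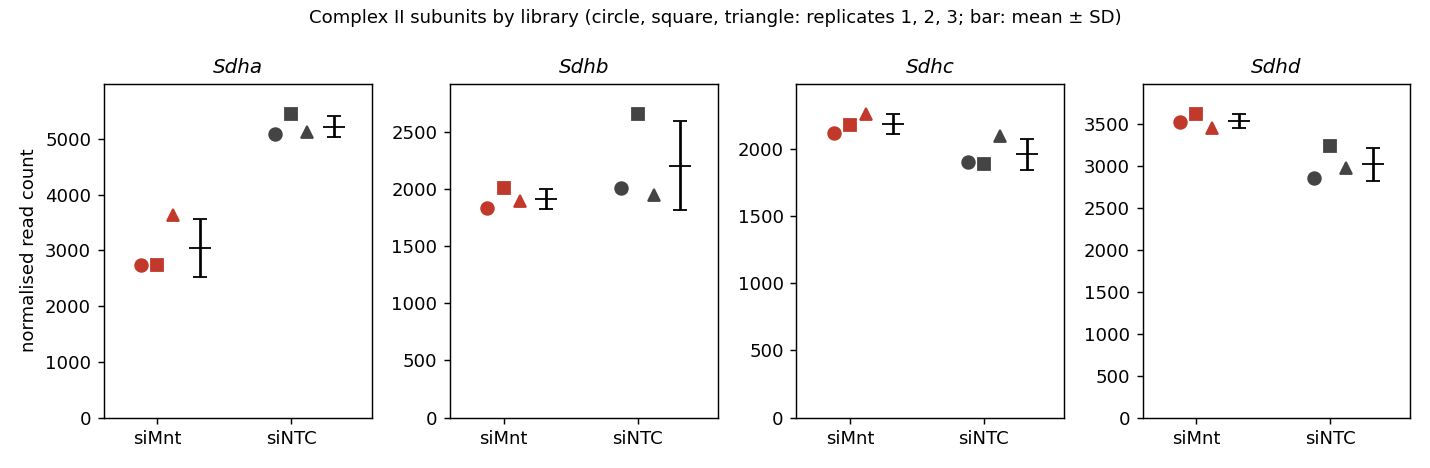
Normalised read count (y axis) of the complex II subunits in each library, with siMnt left of siNTC and bars at the mean ± SD (n = 3 each). The siMnt points of Sdha, between 2742 and 3641, lie below every siNTC point, while those of Sdhc and Sdhd lie above.

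Complex III, the cytochrome bc1 complex, had a median log2 fold change of -0.03 over 9 subunits, with 3 positive and 6 negative values, and none passed. The abundant members were level between the groups. Uqcrc2, a core protein of the complex, had 4906, 5267 and 4603 normalised read counts in siMnt libraries, against 4336, 6098 and 4701 in siNTC libraries (log2 fold change -0.02, 95% interval -0.36 to 0.32). Cyc1, the cytochrome c1 that hands electrons to cytochrome c, had 3990, 4163 and 3652 in siMnt libraries, against 3805, 3949 and 3428 in siNTC libraries (log2 fold change 0.08, 95% interval -0.18 to 0.34). Both overlapped between the groups.

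The largest values of complex III were those of 3 small subunits, while its other small subunits, Uqcr10 and Uqcrb, had log2 fold changes of -0.03 and 0.06. Uqcrq had 1466, 1818 and 1624 normalised read counts in siMnt libraries, against 2465, 3572 and 1663 in siNTC libraries. The third siNTC library lay among the siMnt libraries, and the other two lay well above them. The log2 fold change was -0.59 (SE 0.25), with an adjusted p of 0.212 in limma, 0.0486 with the replicate block and 0.0184 without siNTC replicate 3, where the log2 fold change was -0.86. Uqcr11, another small membrane subunit, had 493, 649 and 654 in siMnt libraries, against 672, 908 and 684 in siNTC libraries, a log2 fold change of -0.33 (adjusted p 0.302 in limma). Uqcrh, the hinge protein that links the complex to cytochrome c, had 2933, 2701 and 2810 in siMnt libraries, against 2301, 2511 and 2556 in siNTC libraries, a log2 fold change of 0.20 (adjusted p 0.303 in limma). For Uqcr11 all siMnt libraries were lower and for Uqcrh all were higher.

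Complex IV, cytochrome c oxidase, is known for subunits that exist as tissue isoforms. None of its 13 members passed, and their median log2 fold change was -0.03, with 6 positive and 7 negative values. Cox4i1, the general form of subunit 4, had 7376, 8273 and 7236 normalised read counts in siMnt libraries, against 6624, 9177 and 6554 in siNTC libraries (log2 fold change 0.05, 95% interval -0.31 to 0.41). Cox7a2l, a relative of subunit 7a that joins complexes III and IV into supercomplexes, had 5739, 5997 and 5855 in siMnt libraries, against 6003, 7771 and 5263 in siNTC libraries (log2 fold change -0.09, 95% interval -0.45 to 0.26). The siNTC libraries reached above and below the siMnt libraries for both genes. Cox5a, a subunit on the matrix side, had a log2 fold change of -0.16, and Ndufa4, first assigned to complex I and now counted in complex IV, had one of -0.06. The other general isoforms lay close to 0, with log2 fold changes of 0.01 for Cox6a1, 0.03 for Cox6b1 and 0.11 for Cox8a, and 95% intervals within 1.5-fold.

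The heart and muscle isoform of subunit 7a showed the largest positive value among all members. Cox7a1 had 97.3, 93.1 and 90.7 normalised read counts in siMnt libraries, against 33.2, 52.1 and 69.1 in siNTC libraries. The siMnt libraries were close together and all higher, and the siNTC libraries were spread widely. The log2 fold change was 0.91 (SE 0.29), with an adjusted p of 0.116 in limma and 0.0267 without siNTC replicate 3. Its general counterpart Cox7a2 had 2354, 2280 and 2398 in siMnt libraries, against 1925, 2511 and 2047 in siNTC libraries, a log2 fold change of 0.13 with overlap. Per kilobase of transcript Cox7a1 stood at a mean of 238 in siMnt libraries and 131 in siNTC libraries, and Cox7a2 at 3557 in siMnt libraries and 3279 in siNTC libraries, so the general isoform made up most of subunit 7a RNA in both groups. Of 5 markers of skeletal or cardiac muscle, 2 were measured, Tnnt2 and Acta1. Their summed level was between 408 and 621 in siMnt libraries and between 1092 and 3901 in siNTC libraries, and limma called Tnnt2 lower, whereas Acta1 had an adjusted p of 0.188 in limma and 0.0385 with the block. Whether muscle genes as a class bear on the Cox7a1 value was not tested. The isoforms Cox4i2, Cox6a2, Cox6b2, Cox8b and Ndufa4l2 were not analysed here.

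**Figure D3:**
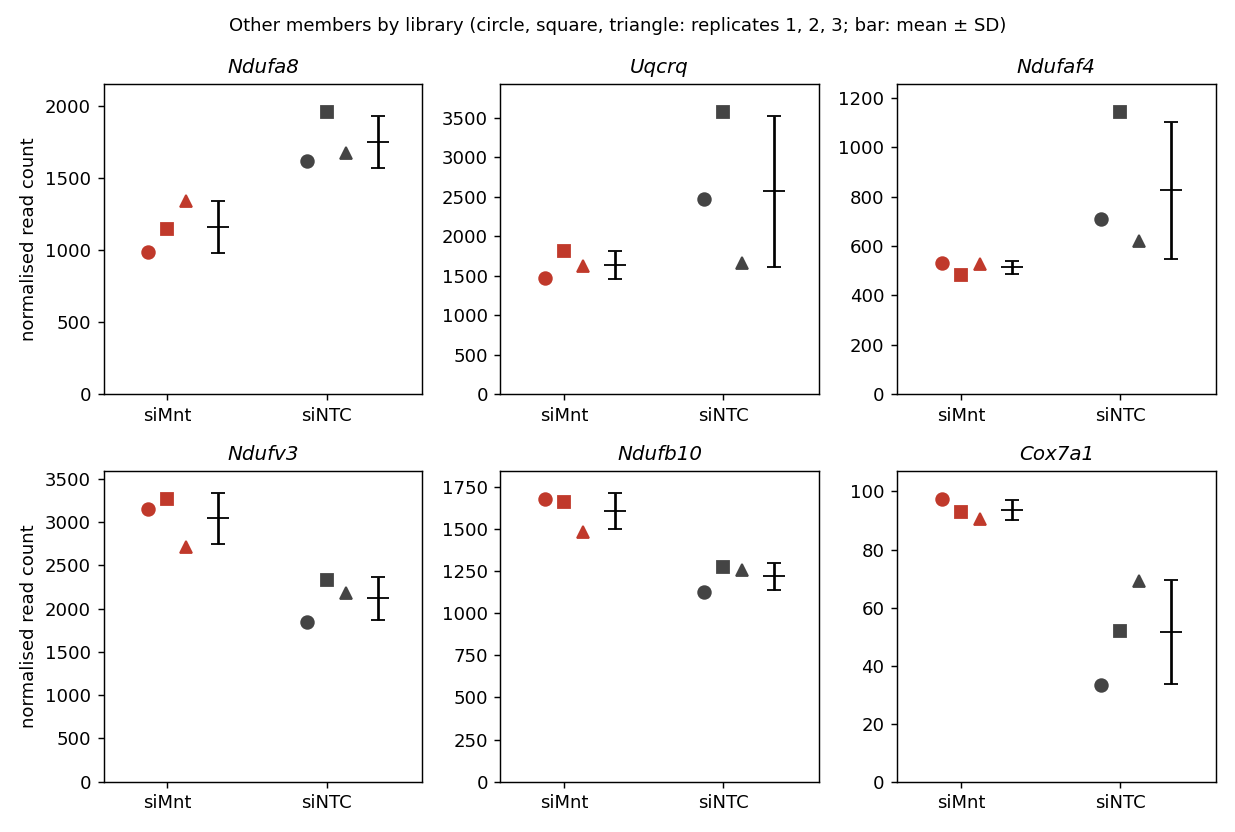
Normalised read count (y axis) in each library of 6 members outside complex II with large log2 fold changes, siMnt left of siNTC, with bars at the mean ± SD (n = 3 each). The upper panels (Ndufa8, Uqcrq, Ndufaf4) have negative and the lower panels (Ndufv3, Ndufb10, Cox7a1) positive values; none of the 6 passed limma's test on all libraries.

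Some values in the family rest on few reads or on sequence shared with other genes. Cox7c, a small subunit of complex IV, was represented by 10, 0 and 5 recovered reads in siMnt libraries, against 15, 31 and 20 in siNTC libraries. Its log2 fold change of -2.12 had an adjusted p of 0.211 in limma, and 53.0% of the 50-base words of its transcript occur in transcripts of 3 other genes. Reads that match several genes may have been dropped or placed elsewhere, which the sources used here do not state. Ndufs5, an accessory subunit of complex I, had 44, 40 and 32 recovered reads in siMnt libraries, against 43, 54 and 64 in siNTC libraries, and 35.6% of its words are shared. The value for Ndufb4c, annotated as a processed pseudogene in GENCODE, was 7.11 ± 0.82 times that of the complex I gene Ndufb4 in siMnt libraries and 6.75 ± 1.08 times in siNTC libraries (SD, n = 3 each). Every 50-base word of Ndufb4c is also in Ndufb4, so the split of reads between them is uncertain. Ndufa11b, a second copy related to Ndufa11, had 3, 2 and 13 recovered reads in siMnt libraries, against 10, 19 and 16 in siNTC libraries. In all, 48 of 88 members with a transcript shared at least 1 word with another gene, 7 shared more than 50% of theirs, and 40 shared none, Ndufa8, Ndufv3, Ndufb10, Uqcrq and Cox7a1 among them.

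Complex V, the ATP synthase, had the highest median of the 5 complexes at 0.06, with 12 of 17 log2 fold changes positive, all between -0.15 and 0.32. None passed, none had an unadjusted p under 0.05, and 15 of 17 intervals lay within 1.5-fold. The alpha and beta subunits were the most abundant members by read count. Atp5b, the beta subunit that carries the catalytic site, had 17776, 18494 and 16771 normalised read counts in siMnt libraries, against 19426, 22483 and 16659 in siNTC libraries (log2 fold change -0.13, 95% interval -0.47 to 0.20). Atp5a1, the alpha subunit, had 17401, 17782 and 16765 in siMnt libraries, against 15633, 16434 and 15835 in siNTC libraries (log2 fold change 0.12, 95% interval -0.14 to 0.38). The siMnt libraries were all higher for the alpha subunit and overlapped with siNTC for the beta subunit.

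The 3 largest changes of complex V were those of Atp5g2, one of the genes of subunit c in the membrane ring, and of Atp5e and Atp5d, the epsilon and delta subunits of the central stalk. Atp5e had 1678, 1833 and 1633 normalised read counts in siMnt libraries, against 1256, 1649 and 1298 in siNTC libraries, a log2 fold change of 0.30 (adjusted p 0.238 in limma). Atp5d had 2857, 3031 and 2942 in siMnt libraries, against 2746, 2476 and 2505 in siNTC libraries, a log2 fold change of 0.19 (adjusted p 0.305 in limma). All siMnt libraries of Atp5d were higher, whereas 1 siNTC library of Atp5e, replicate 2, reached into the siMnt range. Atp5g1, Atp5g2 and Atp5g3 encode the same mature subunit c behind different import sequences, and their log2 fold changes were 0.14, 0.32 and 0.16. Atp5g2 had 2095, 2253 and 2116 in siMnt libraries, against 1571, 2110 and 1557 in siNTC libraries, and all of its 50-base words occur in the transcript of another gene, Gm10175. Atp5g3 had 5810, 5957 and 5655 in siMnt libraries, against 5399, 5230 and 4939 in siNTC libraries, with no overlap, an adjusted p of 0.383 in limma and no shared word. Atp5g1 had 927, 1134 and 1082 in siMnt libraries, against 897, 1164 and 806 in siNTC libraries, with overlap. Per kilobase the order of the 3 genes was the same in both groups, Atp5g3 highest at 8133 in siMnt libraries and 7268 in siNTC libraries, then Atp5g2, then Atp5g1 at 1516 in siMnt libraries and 1383 in siNTC libraries.

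Median levels per kilobase of transcript differed between the complexes, but the ranges of their subunits overlapped. In siMnt libraries single subunits ran from 75 to 4736 in complex I, 689 to 2872 in complex II and 1346 to 5146 in complex III. They ran from 10 to 10239 in complex IV and from 1516 to 9228 in complex V, where 16 of the 17 subunits were covered. The median over subunits was 4748 in siMnt and 4731 in siNTC libraries for complex IV, 3976 in siMnt and 3706 in siNTC libraries for complex V, 2589 in siMnt and 2452 in siNTC libraries for complex III, 1567 in siMnt and 1574 in siNTC libraries for complex I, and 1361 in siMnt and 1865 in siNTC libraries for complex II. The order was kept in both groups apart from complexes I and II. Complex II stood below complex I in siMnt libraries and above it in siNTC libraries, Sdha being one of its 4 genes. The highest single levels were those of Cox4i1 in siMnt libraries, at 10239, and of Ndufa4 in siNTC libraries, at 10418.

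The spread within the siNTC group bears on all of these genes at once. In 71 of the 89 members (79.8%) siNTC replicate 2 was the highest of the 6 libraries, as it was for 31.8% of all tested genes. The summed normalised read counts of the members were 207081, 217589 and 205858 in siMnt libraries, against 198336, 245075 and 194805 in siNTC libraries. The siMnt libraries thus lay between the second siNTC library and the other two. In log2 units the median deviation of a member from its own mean was -0.03, 0.04 and -0.02 in siMnt libraries, against -0.12, 0.25 and -0.12 in siNTC libraries, and the 5 complexes moved together in siNTC replicate 2. Between libraries of the same number, the median log2 difference of the members was 0.08 for number 1, -0.21 for number 2 and 0.10 for number 3. Without siNTC replicate 2 the median log2 fold change of the members was 0.12, and without siNTC replicate 3 it was -0.08, so the sign of the median depended on which control library was present.

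Members are short transcripts, with a median longest transcript of 1141 bases against 3334.5 for all tested genes, and a median GC content of 50.02% against 49.65%. After trends with GC content and length were removed within each library, siNTC replicate 2 was the highest library for 29 of 89 members (32.6%), close to the 28.3% of all tested genes. The median log2 differences by number were then 0.09, 0.02 and 0.06, and the median log2 fold change of the members was 0.03, with 0.12 for complex V and between 0.01 and 0.04 for the other complexes. Sdha kept a log2 fold change of -0.75 (adjusted p 0.0246 in limma) after this correction.

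**Figure D4:**
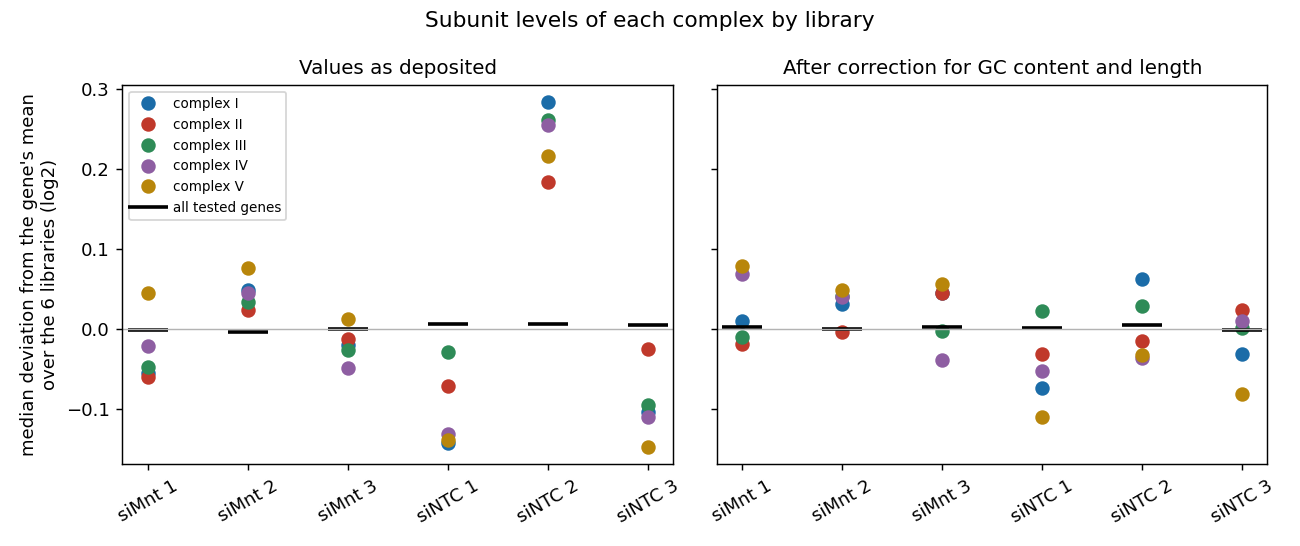
Median deviation (log2, y axis) of the subunits of each complex from each gene's mean over the 6 libraries, by library, with black bars for all tested genes. In the deposited values (left) all complexes lie at 0.18 or higher in siNTC replicate 2, and after correction for GC content and transcript length (right) all values lie between -0.11 and 0.08.

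Genes that surround the respiratory chain were counted from lists of the pathway. By the same limma test, 2.56% of all tested genes passed as higher and 1.37% as lower. None passed among 8 complex I assembly factors with other names, 4 complex II assembly factors, 6 complex III assembly factors, 3 complex V assembly and inhibitor genes, 7 electron carrier and feeding enzyme genes, 11 genes of coenzyme Q synthesis, 14 citrate cycle genes and 7 membrane transport genes. The citrate cycle, which supplies NADH and succinate, had a median log2 fold change of -0.06. Cycs, the cytochrome c that carries electrons between complexes III and IV, had 3100, 2650 and 2551 normalised read counts in siMnt libraries, against 3434, 4637 and 2577 in siNTC libraries, a log2 fold change of -0.32 with overlap (adjusted p 0.386 in limma). Sdhaf2, which is needed to attach the flavin to Sdha, had 1434, 1357 and 1403 in siMnt libraries, against 1776, 2136 and 1722 in siNTC libraries. All siMnt libraries of Sdhaf2 were lower, and its log2 fold change of -0.42 had an adjusted p of 0.0919 in limma and 0.0438 with the replicate block. Vdac1, the outer membrane channel, had 12625, 12376 and 11505 in siMnt libraries, against 9259, 9053 and 9104 in siNTC libraries, a log2 fold change of 0.41 with an adjusted p of 0.0734 in limma and 0.0381 with the block. With the block, the lists also gained Prodh and Yy1 as higher and Tmem70, Sdhaf3, Pdss1 and Tfb2m as lower, all named after their values were seen. Over the 113 genes of these lists that fit called 8 higher and 5 lower, beside the 9.33% and 6.56% of all tested genes given above.

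The genes of the lists that passed act at the entry of pyruvate, in regulation and in the response to low oxygen. All were higher in siMnt cells, where 2.56% of all tested genes passed as higher. Of 11 genes of pyruvate entry 2 rose, Pdk2 and Pdk1, kinases that switch off pyruvate dehydrogenase. Pdk2 had 997, 1072 and 1001 normalised read counts in siMnt libraries, against 307, 294 and 433 in siNTC libraries, a log2 fold change of 1.59 (adjusted p 0.0121 in limma). Pdk1 had 5247, 4115 and 4962 in siMnt libraries, against 1946, 1339 and 3001 in siNTC libraries, a log2 fold change of 1.26 (adjusted p 0.0448 in limma and 0.0522 in edgeR). Neither gene overlapped between the groups. Of 16 regulators of mitochondrial biogenesis 1 rose, Ppargc1a, a coactivator of respiratory genes, with 340, 515 and 252 in siMnt libraries, against 97.0, 105 and 163 in siNTC libraries (log2 fold change 1.57, adjusted p 0.0368 in limma). Nrf1, which encodes nuclear respiratory factor 1, had a log2 fold change of 0.05, and Tfam, which maintains mitochondrial DNA, had one of -0.01, both named after their values were seen. Of 23 genes for complex IV assembly and copper delivery 1 rose, Higd1a, with 1034, 894 and 752 in siMnt libraries, against 494, 605 and 463 in siNTC libraries (log2 fold change 0.77, adjusted p 0.0480 in limma). Of 5 measured genes of the switch of respiration in low oxygen 3 rose, Bnip3, Higd1a and Pdk1, while Lonp1 and Bnip3l did not pass. Higd1a and Pdk1 were thus counted in another list above as well. The lists were drawn up with earlier results of these data known, so these counts are description and not independent support for a theme. Bnip3, a receptor for the removal of mitochondria, had 2714, 2186 and 1929 in siMnt libraries, against 600, 640 and 749 in siNTC libraries (log2 fold change 1.77, adjusted p 0.0107 in limma). None of these 5 genes passed in limma without siMnt replicate 1, siMnt replicate 2 or siNTC replicate 1, where no gene of the table did, and the adjusted p of Bnip3 and Pdk2 over those 3 omissions lay between 0.0718 and 0.102. Pdk1, Ppargc1a and Higd1a also failed to pass without siMnt replicate 3 (adjusted p 0.113, 0.0503 and 0.0757), and Pdk1 and Ppargc1a without siNTC replicate 2 (0.0589 and 0.0701).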

How the data were processed

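RNA was sequenced from 6 libraries of NMuMG cells, 3 siMnt and 3 siNTC, grouped by their titles, which also give replicate numbers. Per the submitters' processing notes, TopHat2 2.1.0, DESeq2 and genome build mm9 were used, and a DESeq version of 3.5 is named. The counting tool, annotation, strand setting and treatment of reads that match several genes are not given in these sources. The authors deposited a signal value per gene and library. Judged from the values, each library was scaled by a single factor applied to whole reads: once divided by what 1 read is worth, 99.7% of values lay within 0.05 of a whole number. Such scaling leaves trends with GC content and length in place. No library was a copy of another. Within groups the lowest chi-square between replicates averaged 15.1 over genes, and between groups Pearson's r of log2 values was at most 0.987.

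After 1958 genes averaging below 10 were left out, 12568 were tested on all 6 libraries as log2(value + 1) with limma 3.58.1 (R 4.3.3, empirical Bayes with a trend, two-sided, no block). A call required an adjusted p (Benjamini-Hochberg) below 0.05. The added 1 shrinks the fold changes of low genes. Members, gene lists and markers were chosen with earlier results of these data known. Genes named were Mnt, members that passed, the 3 largest changes and 2 highest means of each complex, isoform pairs, and up to 3 genes of each pathway list. Other genes are said to have been chosen after their values were seen. Lists were counted, without a set test. Results of 2 genes are not reported here.

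Same-numbered libraries deviated together across all tested genes (r of 0.28, 0.50 and 0.35 for numbers 1, 2 and 3, and between -0.38 and 0.03 for other pairs). The numbers were therefore taken to pair the libraries in the fits with a block, while the main test had none. Across the 89 members alone, these r were -0.20, -0.54 and -0.20, and between -0.32 and 0.43 for other pairs, so the members did not show this pairing. The pairing rests on the data and the titles, and the labels do not say what a number shares.

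Alternatives were other pseudocounts, filters, scalings, variance models and thresholds, the replicate block, edgeR 4.0.16 and DESeq2 1.42.0 on recovered reads, a loess correction for GC content and length of each gene's longest GENCODE M21 transcript, and leaving out each library. The correction covered 99.3% of tested genes and all 89 members. Levels per kilobase used 1 principal transcript per gene. The tests were checked on simulated data. Start regions are from RefSeq on GRCm38.p6, and no other coordinates are given.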

Additional observations from a re-analysis of the deposited data

How the results depend on the processing

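The count of members called moved with several choices, against 0 higher and 1 lower in siMnt cells over all 6 libraries with limma. With the replicate block, 2 were higher and 3 lower. DESeq2 gave 2 higher and 2 lower, the GC and length correction 1 higher and 2 lower, and that correction with the block 4 higher and 2 lower. An adjusted p under 0.1 gave 2 higher and 2 lower, beside 6.46% and 4.17% of all tested genes, and under 0.01 it gave 0 lower, as for all genes. Without the variance trend 0 were lower, beside 0.748% of all genes. Leaving out 1 library gave between 0 and 2 higher and between 0 and 5 lower with limma on the deposited values and with edgeR, and between 0 and 7 higher and 0 and 4 lower with limma after the GC and length correction, the highest counts without siNTC replicate 3; leaving out libraries with edgeR or after the correction was added after seeing the data. Other pseudocounts, filters, scalings, the robust fit and edgeR gave 0 higher and 1 lower, which was Sdha. The median log2 fold change of the members and of each complex moved by less than the spread between replicate numbers (SD 0.17 for the members) under every alternative run. That spread itself holds the deviation of siNTC replicate 2, so the comparison cannot show that the medians were stable. The members' median was -0.02 over all libraries, 0.12 without siNTC replicate 2 and -0.08 without siNTC replicate 3. Over the single genes named, 930 values kept their direction and side of the threshold, 33 became calls, 31 lost the call and 3 moved, and none turned its sign while called. The cause was not tested for any of these. Among the genes named with values, the block changed no call beyond those given beside them. With 3 libraries a group, differences of 0.40 to 0.60 log2 units (Ndufb10, Ndufv3 and Ndufa8) did not pass, and Cox7c, Ndufa11b and Ndufs5 had at most 64 reads in any library.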
